A study of Mus musculus with 20 samples.

Results

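The genes described here encode the interleukin-6 (IL-6) family of cytokines, their receptors, the transcription factor STAT3 and the suppressors of cytokine signaling (SOCS) that shut the pathway off. They were chosen by name, as the array annotation spells it: Il6, Lif and Il11 (ligands), Il6ra, Il6st and Osmr (receptor chains), Stat3, and Socs1, Socs2 and Socs3. Of these 10 genes, 9 had a probe under their name among the 27827 gene names on the array, and no probe carried the name Lif. Kidney RNA came from male C57BL/6 mice aged 8 to 12 weeks, and each of 5 groups was measured on 4 arrays. Control mice had no surgery and no treatment. IRI mice had both renal pedicles clamped for 45 minutes and were killed after 6 hours of reperfusion (ischemia/reperfusion injury). IRI+Hemin mice received hemin, an inducer of heme oxygenase, at 25 mg/kg by intraperitoneal injection 24 hours before the same surgery. IPC+IRI mice had been preconditioned by 15 minutes of clamping 7 days before it. Hemin mice received 25 mg/kg of the drug without surgery. Neither uninjured group was sham operated, so anesthesia and incision cannot be told apart from ischemia.

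Levels are given as log2 of the background-corrected signal over the 75th percentile of the array, so that a level of 0 equals that percentile and a difference of 1 is a 2-fold change. The 5 groups lay on 5 slides, 1 group to a slide, and slide and group therefore cannot be told apart. Scanning took 3 days: Control and IRI shared the first, IRI+Hemin had the second, and IPC+IRI and Hemin shared the last. IRI vs Control and IPC+IRI vs Hemin are thus the only comparisons made within a scan day. The groups of the latter differ in ischemia, preconditioning and hemin at once. Between 57.4% and 67.4% of gene names were well above background on an array. Markers of tubule segments were high in all groups, whereas the adrenal marker was close to 0, at a signal of 0.0051 to 0.0152 of the 75th percentile. The sum of 2 markers of adipose tissue varied within groups, from 0.0159 to 13.3 in Control and from 0.0189 to 7.71 in IRI, and its part in the results was not tested.

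Cytokines of this family bind a private receptor chain, such as the IL-6 receptor encoded by Il6ra or the oncostatin M receptor encoded by Osmr, and signal through gp130, the shared chain encoded by Il6st. Janus kinases bound to gp130 phosphorylate STAT3, which moves to the nucleus and switches on genes of the acute phase and of cell survival. One of these is Socs3, whose product binds gp130 and its kinases and ends the signal, so that its transcript is a common readout of STAT3 activity. In the kidney, IL-6 is made by tubular, endothelial and infiltrating cells after injury.

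The promoter of Socs3 is shown because this gene had the lowest adjusted p of the family in IRI vs Control and because STAT proteins bind the palindrome TTCNNNGAA. Promoter sequences were those of RefSeq (GRCm38.p6), and the 250 bases before the start site were searched. The palindrome reads the same on both strands. A window was on hand for 9 of the 10 genes, Lif included and Socs2 not, and for Il11 there were 2, so that 10 windows were searched. Only the Socs3 window held the motif, as did 7.02% of all 32851 promoter windows of the same length. It ended 145 bases before the start site. The window lies on the minus strand at chr11:117969367-117969616 and is written 5′ to 3′ with the motif in capitals.
Socs3: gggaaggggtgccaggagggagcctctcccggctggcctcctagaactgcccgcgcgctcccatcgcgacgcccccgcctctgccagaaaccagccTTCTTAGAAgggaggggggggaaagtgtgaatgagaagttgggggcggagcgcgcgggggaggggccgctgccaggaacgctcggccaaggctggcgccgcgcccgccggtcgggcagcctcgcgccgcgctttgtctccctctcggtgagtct
A match is a description of the letters only, and its absence from the other windows says nothing of STAT binding there.

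After ischemia and reperfusion, 5 of the 9 measured genes rose over Control: Il6, Il6st, Osmr, Stat3 and Socs3. The other 4 (Il11, Il6ra, Socs1 and Socs2) did not pass the test. Calls were made with limma, at a threshold of 0.05 on p-values adjusted by Benjamini-Hochberg over the genes tested in each comparison. Of all 17719 genes tested in IRI vs Control, 50.6% were called, 17.0% as higher and 33.7% as lower, so that the count in either direction was near the background and the count of rises above it. The same 5 genes rose in IPC+IRI vs Control, where Il11 fell; there 55.8% of genes were called, 23.1% as higher and 32.6% as lower. Both comparisons use the Control arrays. IRI vs Control shares no array with IRI+Hemin vs Hemin, in which 7 of 9 genes rose (all but Il6ra and Socs1) while 44.2% of all genes were called, 16.4% higher and 27.8% lower. Nor does it share any with IPC+IRI vs Hemin, in which 6 of 9 rose (Il6, Il6st, Osmr, Stat3, Socs2 and Socs3) against 35.8% of all genes called, 13.1% higher and 22.7% lower. The median difference of the 9 genes was 0.74 in IRI vs Control and 0.97 in IRI+Hemin vs Hemin, against -0.17 and -0.15 over all genes tested. Without Il6, which was below background in the uninjured groups, the medians of the other 8 genes were 0.73 and 0.81. The 9 genes were chosen with earlier results of these data known, so these counts and medians only describe.

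**Figure D1:**
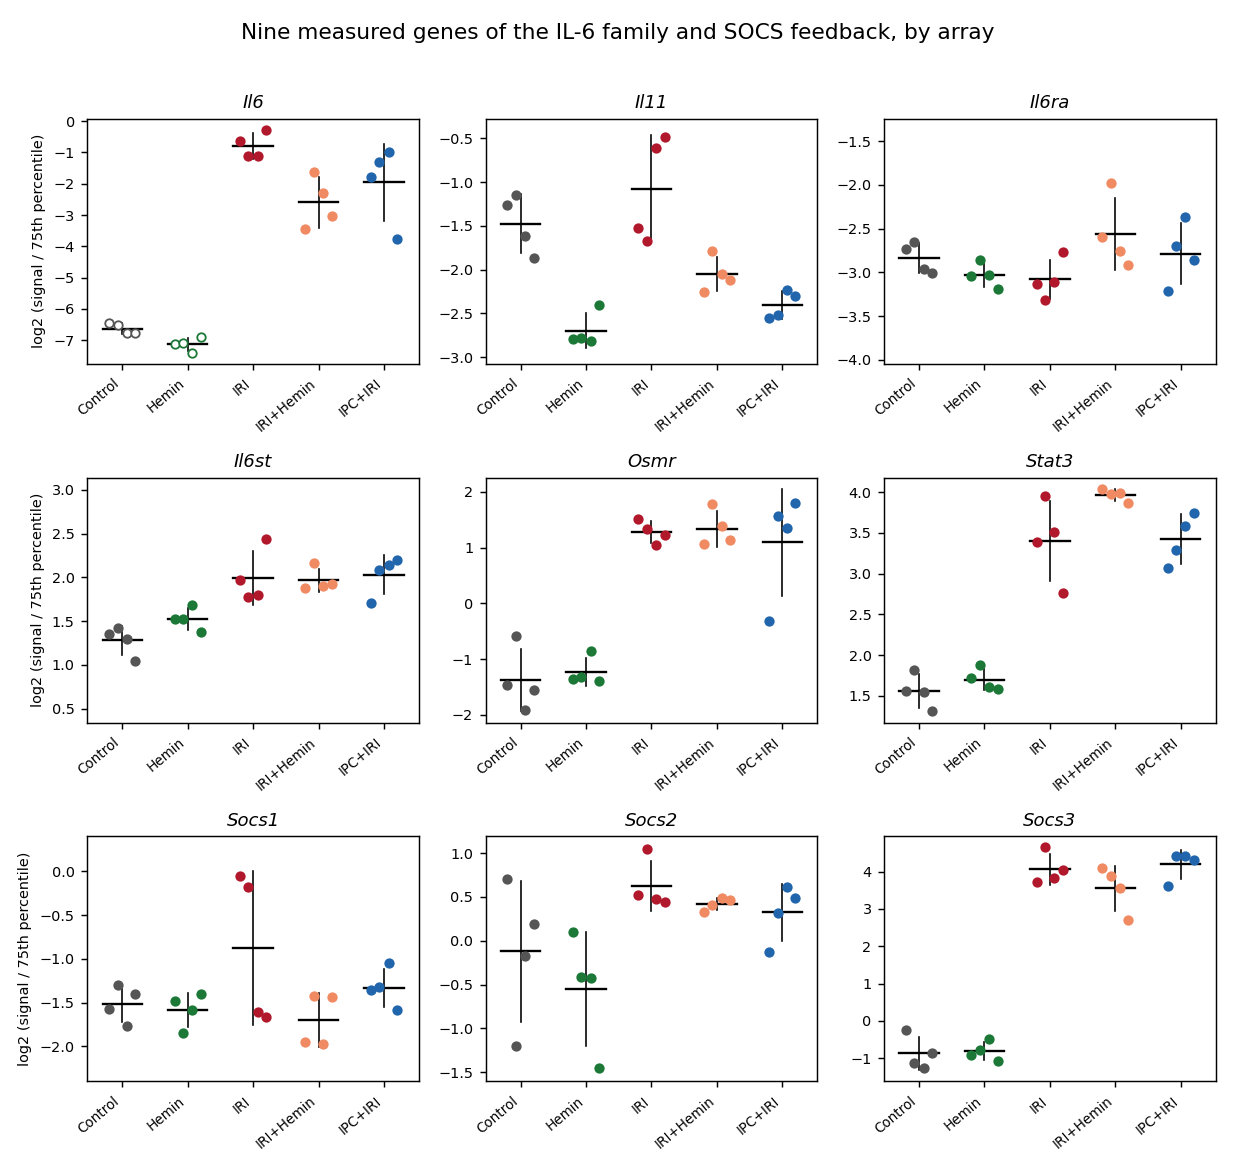
Log2 level (signal over the 75th percentile of the array) of the 9 measured genes in each array, by group. Each point is 1 array, open points were not well above background, and bars give the mean and SD of 4 arrays. Il6, Osmr, Stat3 and Socs3 of all injured arrays lie above those of all uninjured arrays, whereas Il11 is lowest in the Hemin group.

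Il6 encodes the founding cytokine of the family and had a single probe (mm9 chr5:30346362-30346421). It was not well above background on any Control or Hemin array and was well above it on all 12 injured arrays. In Control its log2 level read -6.45, -6.53, -6.78 and -6.79, and in Hemin -7.13, -7.10, -7.40 and -6.90. In IRI it read -0.65, -1.13, -1.10 and -0.28. These 3 groups did not overlap between injured and uninjured arrays. The IRI group was 24.3-fold higher than Control when each Control array was raised to its dimmest signal of any probe well above background. That floor had a mean of -5.39. An Osmr probe read higher, at -4.52 and -4.77 on Control arrays 2 and 3, without being well above background. The fold is therefore no strict lower bound. The fitted difference, from the measured levels, had an adjusted p of 3.40e-08 (limma). With another background correction (normexp, which models background instead of subtracting it) the fitted log2 difference was 1.61, still called, against 5.85. Il6 passed the filter on dim genes only through the injured groups. Its place among the called genes of these comparisons is therefore no support of its own. Without it 4 of 8 rose in IRI vs Control and 6 of 8 in IRI+Hemin vs Hemin. Likewise 4 of 8 rose in IPC+IRI vs Control, and 5 of 8 in IPC+IRI vs Hemin.

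Il6 was lower in kidneys given either pretreatment than in IRI kidneys, with unequal firmness. In IRI+Hemin its log2 level was -3.45, -1.61, -2.31 and -3.02, all below the 4 IRI arrays. The difference from IRI was -1.81 (SE 0.46, adjusted p 0.00405, limma), and it stayed called with any array left out. In IPC+IRI the levels were -1.78, -1.32, -0.99 and -3.75, of which the third lay within the IRI range. The difference from IRI was -1.17 (SE 0.46, adjusted p 0.0463) and lost its call when any IRI array, or IPC+IRI array 1 or 4, was left out. Without IPC+IRI array 4 it was -0.57. By the same floor, Il6 was 10.8-fold above Control in IPC+IRI, 8.43-fold above Hemin in IRI+Hemin and 13.1-fold above Hemin in IPC+IRI. These folds are for the subtracted background and are no strict lower bounds. With normexp the log2 differences were 0.85, 0.98 and 1.3, all called.

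Il11, an IL-6 family cytokine of epithelial and stromal cells, followed another order. Its levels in Control were -1.26, -1.15, -1.61 and -1.87, and in IRI -1.52, -1.68, -0.61 and -0.48. The Control and IRI arrays overlapped and the difference, 0.40 (SE 0.23), did not pass (adjusted p 0.162, limma), although it did with quantile normalization and without IRI array 2 (0.60). All 4 Hemin arrays, at -2.79, -2.78, -2.81 and -2.40, lay below all Control arrays. Il11 was the only 1 of 8 tested genes to be called in Hemin vs Control, with a difference of -1.22 (SE 0.23, adjusted p 0.000852), in a comparison where 35.9% of all genes were called, 18.4% as higher and 17.5% as lower. Without normalization between arrays it was -0.66 and not called. It also lay below IRI in both pretreated groups, with 95% confidence intervals of -1.81 to -0.84 in IPC+IRI and -1.47 to -0.49 in IRI+Hemin. The latter call was lost without normalization (-0.62) and by the methods' t-test, and the former was -0.83 with normexp, still called. IPC+IRI arrays read -2.55, -2.52, -2.23 and -2.30 and were below Control by a difference of -0.93 (SE 0.23, adjusted p 0.00261), which was -0.49 and not called without normalization and -0.49 but called with normexp. IRI+Hemin arrays read -2.25, -1.79, -2.05 and -2.12 and were 0.64 above Hemin (SE 0.23, adjusted p 0.0325). That last call was lost without IRI+Hemin array 2 or 3 or without Hemin array 1, 2 or 3, the difference then being 0.55 to 0.64. The call held under 9 of 13 other settings, over which the difference ran from 0.40 to 0.80.

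Lif, the gene of leukemia inhibitory factor, is named nowhere among the probes. A probe for the transcript AK019683, which the annotation describes as a leukemia inhibitory factor product (mm9 chr11:4174323-4174382), was looked at after its values were known and lies outside the choice by name. Its level was -1.47 ± 0.29 in Control and -1.62 ± 0.19 in Hemin, and lower in the injured groups, at -2.09 ± 0.28 (IRI), -2.10 ± 0.09 (IRI+Hemin) and -2.42 ± 0.25 (IPC+IRI; SD, n = 4). It fell in IRI vs Control (-0.62, SE 0.16, adjusted p 0.00399, limma) and in IPC+IRI vs Control (-0.95, SE 0.16, adjusted p 9.89e-05). Its direction was thus opposite to that of Il6. Whether it reports the spliced Lif transcript cannot be read from the array.

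Among the receptor chains, Osmr rose most. This gene encodes the chain that pairs with gp130 to bind oncostatin M. Its levels were -1.46, -0.58, -1.91 and -1.56 in Control and 1.51, 1.33, 1.05 and 1.23 in IRI. The difference was 2.66 (SE 0.36, adjusted p 1.09e-05, limma), a 6.31-fold rise. In the other groups it read 1.06, 1.77, 1.39 and 1.13 (IRI+Hemin), -0.32, 1.56, 1.35 and 1.80 (IPC+IRI), and -1.36, -1.32, -0.85 and -1.39 (Hemin). IPC+IRI array 1 stood between the injured and the uninjured arrays. Osmr rose 5.93-fold in IRI+Hemin vs Hemin (log2 2.57, SE 0.36, adjusted p 2.56e-05) and by 2.33 (SE 0.36, adjusted p 9.03e-05) in IPC+IRI vs Hemin.

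Both probes of Osmr rose in IRI vs Control, and they differed between the injured groups. The brighter, A_51_P319460 (mm9 chr15:6763686-6763745), sets the mean of the pair, and the dimmer, A_52_P495729, lies at chr15:6765043-6765102. The dimmer probe read -0.82, -1.27, -1.31 and -1.10 in IRI, above the -3.31, -2.50, -2.73 and -2.76 of IRI+Hemin. Its difference in IRI+Hemin vs IRI was -1.70 (SE 0.37, adjusted p 0.0014, limma over probes) where the brighter probe gave 0.16 (SE 0.36, adjusted p 0.741). In IPC+IRI vs IRI it gave -2.29 (SE 0.37, adjusted p 0.000126) against -0.07 (SE 0.36, adjusted p 0.885). It gave 0.90 (SE 0.37, adjusted p 0.0496) in IPC+IRI vs Control against 2.55 (SE 0.36), and its IPC+IRI array 1 (-5.00) lay below all Control arrays. The dimmer probe was well above background on 2 Control arrays and 1 Hemin array, on 3 IPC+IRI arrays, and on all arrays of the other groups. Osmr in the pretreated groups is therefore reported as uncertain.

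Il6st, the gene of gp130, was well above background throughout and rose modestly in every injured group. It read 1.36, 1.42, 1.29 and 1.04 in Control and 1.97, 1.78, 1.80 and 2.44 in IRI, without overlap. The rise was 1.64-fold (log2 0.72, SE 0.15, adjusted p 0.000605, limma). In IPC+IRI vs Control it was 1.68-fold (log2 0.75, SE 0.15, adjusted p 0.000336). IRI+Hemin arrays read 1.88, 2.17, 1.90 and 1.92, and Hemin arrays 1.52, 1.53, 1.68 and 1.37. The rise of IRI+Hemin over Hemin was 0.44 (SE 0.15, adjusted p 0.0221). It lost its call without IRI+Hemin array 2 (0.37) or Hemin array 4 (0.39), and held under 9 of 13 other settings. In IPC+IRI vs Hemin the rise was 0.50 (SE 0.15, adjusted p 0.0126, limma), and its call also held under 9 of 13.

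Il6ra, the gene of the IL-6 binding chain, was dim and moved little as the mean of its 2 probes. Group means ran from -3.08 ± 0.23 in IRI to -2.56 ± 0.41 in IRI+Hemin (SD, n = 4), with overlapping arrays. Il6ra was called higher in IRI+Hemin vs IRI (0.52, SE 0.19, adjusted p 0.0374, limma), but with normexp the direction turned (-0.15, not called). The call was also lost when IRI array 1, 2 or 3 or IRI+Hemin array 1 or 2 was left out, the difference being 0.32 without the last. The probes disagreed. In IRI vs Control, A_51_P415863 (mm9 chr3:89690491-89690550) fell by 0.91 on the log2 scale (SE 0.21, adjusted p 0.00155), whereas A_51_P415855 (chr3:89680743-89680802) gave 0.24 (SE 0.21, adjusted p 0.355). No direction is given for the gene in that comparison.

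**Figure D2:**
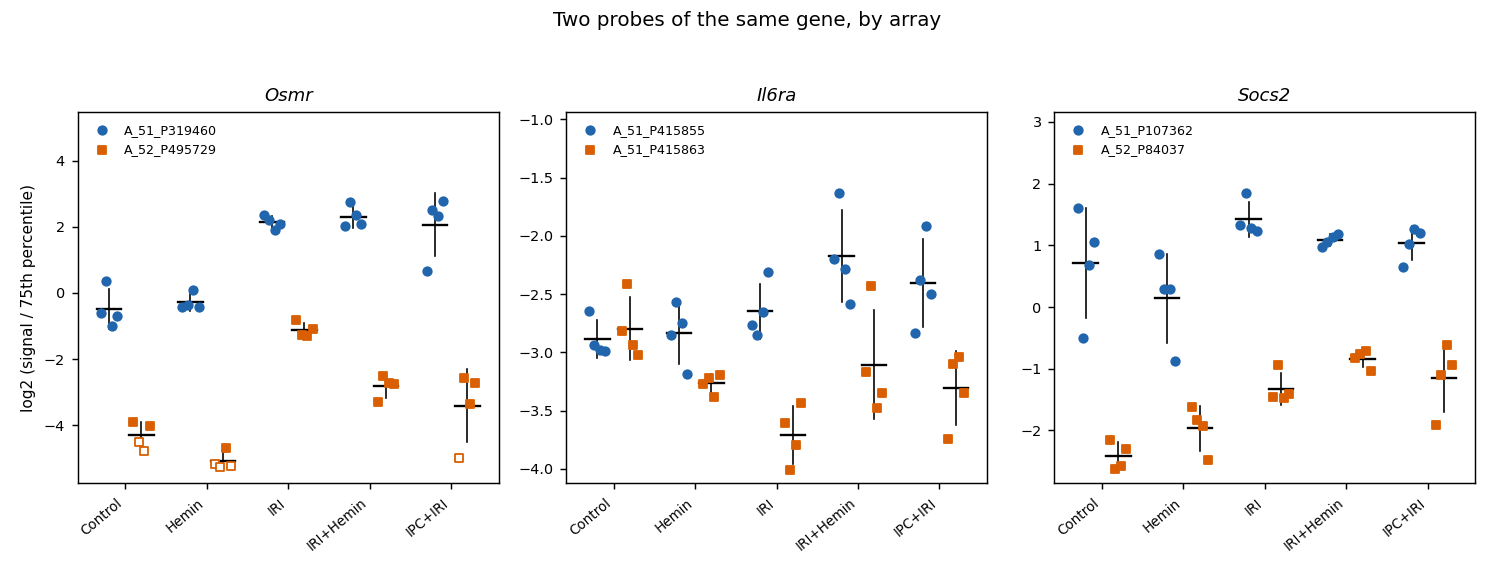
Log2 level of the 2 probes of Osmr, Il6ra and Socs2 in each array, by group. Circles and squares mark the 2 probes, open symbols were not well above background, and bars give the mean and SD of 4 arrays. The dimmer Osmr probe is highest in IRI (mean -1.13, against -2.82 in IRI+Hemin), whereas its brighter partner has like means there (2.14 and 2.30).

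Stat3, the transcription factor on which these receptors converge, rose in every injured group. Its levels were 1.56, 1.81, 1.55 and 1.31 in Control and 1.72, 1.88, 1.61 and 1.59 in Hemin. Injured arrays were all higher: 3.38, 3.96, 3.51 and 2.76 in IRI, 3.07, 3.29, 3.58 and 3.75 in IPC+IRI. In IRI+Hemin the 4 arrays read 4.04, 3.97, 4.00 and 3.87, the tightest set of the gene. The rise was 3.59-fold in IRI vs Control (log2 1.84, SE 0.20, adjusted p 9.36e-07, limma) and 4.83-fold in IRI+Hemin vs Hemin (log2 2.27, SE 0.20, adjusted p 2.04e-07). Stat3 was also 1.48-fold higher in IRI+Hemin than in IRI (log2 0.57, SE 0.20, adjusted p 0.0247). That call was lost without IRI array 4 (0.36) or IRI+Hemin array 1 (0.55), when only the 8 arrays compared set the spread, and by the methods' t-test and SAM. The level of Stat3 mRNA does not measure phosphorylated STAT3.

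Socs3, the feedback inhibitor, had a single probe (mm9 chr11:117827480-117827539) and rose in every injured group. It read -0.24, -1.12, -1.26 and -0.86 in Control and -0.91, -0.79, -0.49 and -1.07 in Hemin. In IRI it read 3.72, 4.65, 3.84 and 4.03. No injured array of any group came near an uninjured one. IRI+Hemin arrays were at 4.08, 3.87, 3.55 and 2.69, and IPC+IRI arrays at 3.62, 4.43, 4.42 and 4.30. The rise was 30.5-fold in IRI vs Control (log2 4.93, 95% confidence interval 4.32 to 5.54, adjusted p 1.68e-09, limma), within a scan day. It was 32.2-fold in IPC+IRI vs Hemin (log2 5.01, 95% confidence interval 4.39 to 5.62, adjusted p 2.97e-09), also within a scan day and on other arrays. Preconditioning and hemin differ there too, so ischemia is not isolated.

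Neither pretreated group differed from IRI in Socs3 by a margin that passed. Socs3 differed by 0.13 in IPC+IRI vs IRI (95% confidence interval -0.48 to 0.75, adjusted p 0.732, limma). In IRI+Hemin vs IRI the difference was -0.51 (95% confidence interval -1.12 to 0.10, adjusted p 0.167). These intervals do not show that the groups were alike. Hemin alone differed from Control by 0.06 (95% confidence interval -0.56 to 0.67).

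Socs1, an inhibitor of Janus kinases best known downstream of interferons, did not pass in IRI vs Control (0.64, SE 0.30, adjusted p 0.0828, limma). Its IRI arrays fell into pairs, at -0.050 and -0.18 and at -1.60 and -1.66, beside -1.57, -1.30, -1.77 and -1.40 in Control. Only the first pair exceeded Control. Socs1 was called lower in IRI+Hemin vs IRI (-0.82, SE 0.30, adjusted p 0.0319), with IRI+Hemin arrays at -1.95, -1.43, -1.98 and -1.43. The call was lost without IRI array 1 (-0.55) or 2 (-0.59) and without IRI+Hemin array 1 (-0.74) or 3 (-0.73), and under 5 of 13 other settings, among them normexp (-0.48) and no normalization (-0.46). In IRI vs Control it passed when IRI array 3 (0.88) or 4 (0.90) was left out.

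Socs2, which restrains growth hormone signaling, was spread widely among uninjured arrays: 0.70, -1.21, -0.17 and 0.19 in Control and 0.096, -0.41, -0.43 and -1.46 in Hemin. Injured arrays were tighter, with SDs of 0.28 in IRI, 0.07 in IRI+Hemin and 0.32 in IPC+IRI. Socs2 rose in IRI+Hemin vs Hemin (0.97, SE 0.33, adjusted p 0.0247, limma) and narrowly in IPC+IRI vs Hemin (0.87, SE 0.33, adjusted p 0.0488). The first call was lost without IRI+Hemin array 3 (0.95) or Hemin array 4 (0.67). The second was lost without any of IPC+IRI arrays 2, 3 and 4 (0.78 to 0.88) or Hemin arrays 2, 3 and 4 (0.57 to 0.92), and held under only 4 of 15 other settings. In IRI vs Control the difference was 0.74 (SE 0.33, adjusted p 0.0712), and it passed without Control array 1 (1.02). Hemin vs Control passed without Control array 2 (-0.79). The dimmer probe of Socs2, A_52_P84037 (mm9 chr10:94850747-94850806, annotated to AK033206), read -2.16, -2.62, -2.57 and -2.30 in Control against -1.46, -0.94, -1.48 and -1.41 in IRI. It rose by 1.09 in IRI vs Control (SE 0.23, adjusted p 0.000795) and by 1.27 in IPC+IRI vs Control (SE 0.23, adjusted p 0.000166). The brighter probe, A_51_P107362 (chr10:94875066-94875125), gave 0.71 (SE 0.36, adjusted p 0.111) and 0.32 (SE 0.36, adjusted p 0.464).

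**Figure D3:**
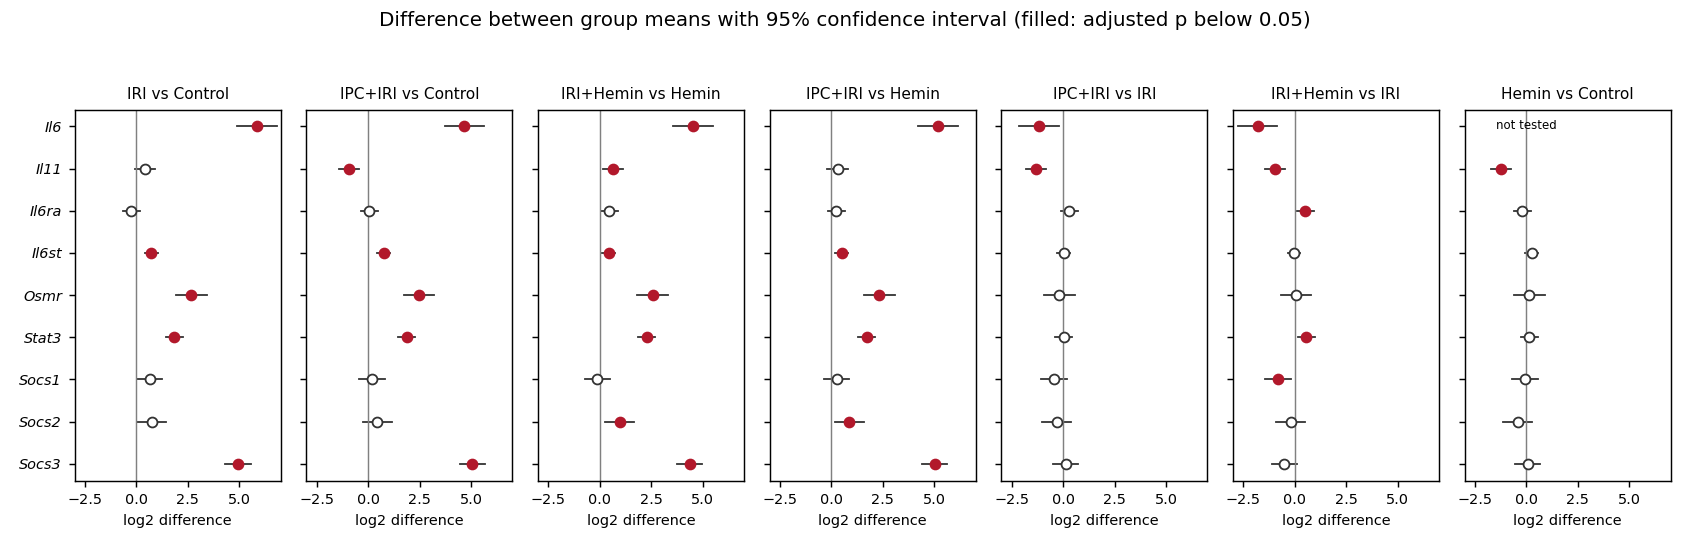
Log2 difference between group means with its 95% confidence interval for the 9 genes in 7 comparisons. Filled points passed an adjusted p of 0.05, and intervals are not adjusted. Il6, Osmr, Stat3 and Socs3 lie to the right in the 4 comparisons of injured with uninjured kidneys, whereas 2 genes were called in IPC+IRI vs IRI, 5 in IRI+Hemin vs IRI and 1 in Hemin vs Control.

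Set against IRI, 2 of the 9 genes were called in IPC+IRI and 5 in IRI+Hemin. In IPC+IRI vs IRI, Il6 and Il11 were called lower and the other 7 did not pass, while 43.7% of all 17668 genes were called, 26.0% as higher and 17.7% as lower. Without normalization between arrays or with any of several other settings only Il11 was called. In IRI+Hemin vs IRI, 5 of 9 were called: Il6, Il11 and Socs1 lower, Il6ra and Stat3 higher. Among all genes 44.0% were called there, 26.1% higher and 18.0% lower. The 5 of 9 were near the share of all genes called there. That count fell to 2 when only the 8 arrays compared set the spread.

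The effect of ischemia could also be compared between mice with and without hemin. By an interaction test of IRI+Hemin minus Hemin against IRI minus Control, none of the 9 genes passed (limma; 1, Il6ra, had an unadjusted p below 0.05), where 7.77% of all 19064 genes did (5.83% higher and 1.95% lower). The difference of differences was -1.31 for Il6 (95% confidence interval -2.67 to 0.05), -0.56 for Socs3 (-1.43 to 0.30) and 0.43 for Stat3 (-0.15 to 1.01). For Il6 these values rest on arrays below background in both uninjured groups. Il6ra gave 0.71 (SE 0.27, adjusted p 0.124) as the mean of its probes and 1.07 (SE 0.29, adjusted p 0.0309 over probes) for A_51_P415863 alone.

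The rest of the pathway was read from 6 lists of 60 other genes. These lists were chosen with earlier results of these data known, so their counts and medians only describe. In IRI vs Control, 20 of 56 tested genes rose and 13 fell, where 17.0% of all genes were called higher and 33.7% lower. Of the 52 that were well above background on at least 3 arrays of both groups, 18 rose and 11 fell. The median was 0.25 for either set, against -0.17 over all genes tested. Most of the rises were in the list of IL-6 and STAT3 target genes, of which 12 of 19 tested rose and 2 fell (median 1.78), or 11 and 2 of the 18 that were well above background on at least 3 arrays of both groups (median 1.75). Lcn2, the iron-binding lipocalin used as a marker of tubular injury, rose by 5.06 (SE 0.43), Myc, a growth regulator, by 4.05 (SE 0.26), and Cebpd, an acute phase transcription factor, by 3.50 (SE 0.26). With normexp the rise of Lcn2 was 2.89 and that of Myc 3.21, both still called. Saa1, an acute phase apolipoprotein, fell by 0.74 on the log2 scale and Ccnd1, the cyclin of early cell cycle, by 0.54. Both of these falls lost their call under several settings, Ccnd1 also without Control array 1, 2 or 3 or IRI array 1, 2 or 3 (-0.40 to -0.57). In IRI+Hemin vs Hemin, 19 of 21 tested targets rose and 1 fell (median 2.17), against 16.4% and 27.8% of all genes. Saa2, Saa3 and Serpina3n passed the filter only through IRI+Hemin, and of the other 18 targets 16 rose and 1 fell (median 2.17), with Lcn2 at 4.00 (SE 0.43), Myc at 3.74 (SE 0.26) and Cebpd at 2.82 (SE 0.26). These genes have other inducers besides STAT3.

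**Figure D4:**
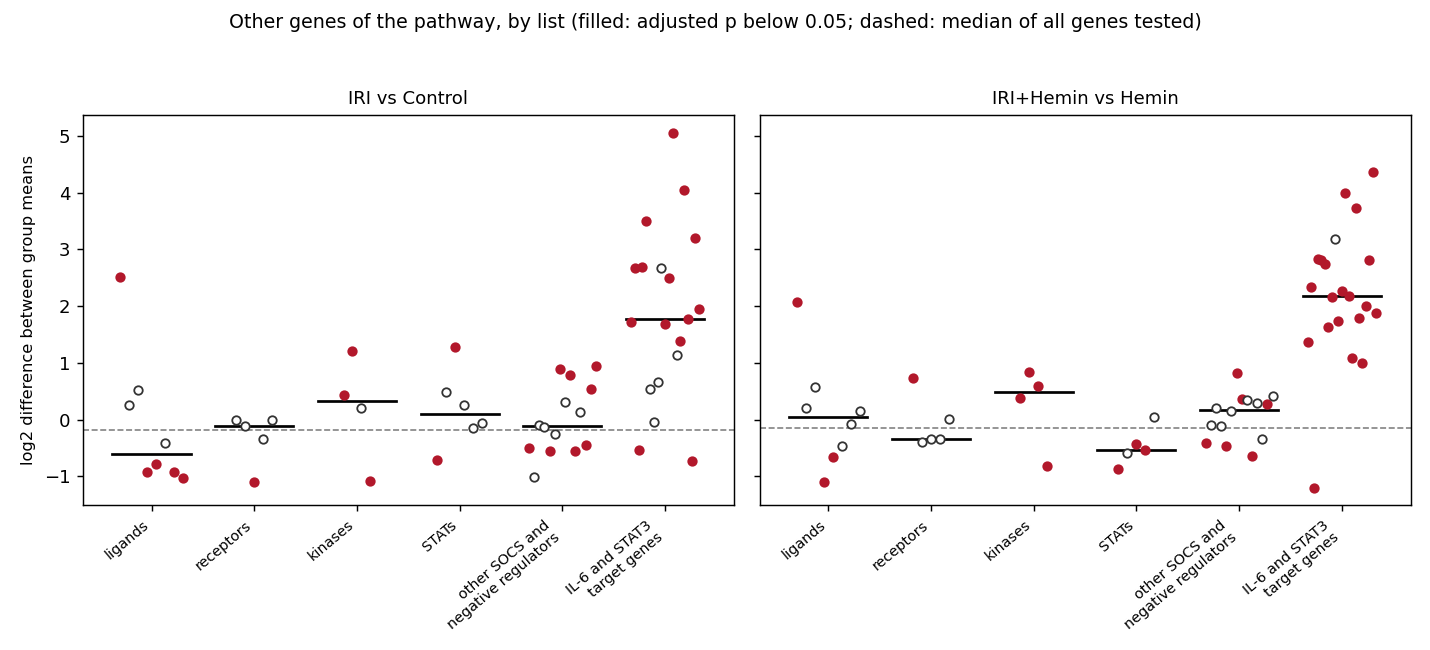
Log2 difference between group means for each tested gene of 6 pathway lists, in IRI vs Control (left) and IRI+Hemin vs Hemin (right). Filled points passed an adjusted p of 0.05, short lines are list medians and the dashed line is the median of all genes tested (-0.17 and -0.15). The target genes lie highest, with list medians of 1.78 and 2.17. The lists were chosen with earlier results of these data known.

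Compared with IRI, targets differed among themselves in the pretreated groups. In IPC+IRI vs IRI, Myc fell by 2.30 (SE 0.26) and Lcn2 by 2.06 (SE 0.43), while Cebpd, at 0.34 (SE 0.26), did not pass. In IRI+Hemin vs IRI, Myc fell by 1.71 (SE 0.26) and Lcn2 by 1.32 (SE 0.43), and Cebpd gave -0.16 (SE 0.26). That call of Lcn2 was lost without IRI array 2 (-1.15) or 4 (-1.20), without IRI+Hemin array 4 (-1.02), and without normalization between arrays (-0.96). Myc was also lower in Hemin than in Control, by a difference of -1.40 (SE 0.26), which was -0.84 without normalization and -0.91 with normexp, both called. Of the targets tested, 5 fell and 2 rose in IPC+IRI vs IRI, and 4 fell and 5 rose in IRI+Hemin vs IRI. The called shares of these 20 and 21 genes were not above the 43.7% and 44.0% of all genes. Saa3 and Serpina3n, acute phase genes, were below background on all arrays of some groups, where only folds over the floor used for Il6 are given. By that floor, which gives no strict lower bound, Serpina3n was 12.2-fold higher in IRI+Hemin than in Hemin, and Saa3 3.80-fold.

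Among the other ligands of the family, Clcf1, a partner of the ciliary neurotrophic factor receptor, rose in all comparisons of injured with uninjured kidneys. Its level was -3.01 ± 0.08 in Control and -3.12 ± 0.13 in Hemin, against -0.50 ± 0.40 (IRI), -1.05 ± 0.32 (IRI+Hemin) and -1.52 ± 0.34 (IPC+IRI; SD, n = 4). The rise in IRI vs Control was 2.51 (SE 0.20, adjusted p 3.40e-08, limma), or 1.33 with normexp, and both pretreated groups lay below IRI, by differences of -1.02 (SE 0.20) in IPC+IRI and -0.55 (SE 0.20) in IRI+Hemin. The latter call was lost without IRI array 4 (-0.37) or IRI+Hemin array 4 (-0.40), and both were lost without normalization between arrays (-0.71 and -0.19). Clcf1 was the only 1 of 8 tested ligands to rise in IRI vs Control, and 4 fell, against 17.0% and 33.7% of all genes. Those named by rule were Osm, which encodes oncostatin M (-1.03, SE 0.21), Ctf1 (-0.93, SE 0.17) and Il27 (-0.93, SE 0.13), although with normexp Osm gave 0.12 and did not pass. Osm was dim, at -4.16 ± 0.29 in Control (SD, n = 4), and well above background on 1 IRI array. It passed the filter only through Control, and of the 7 other ligands 1 rose and 3 fell.

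Of 5 other receptor chains tested, 1 was called in IRI vs Control, Il27ra, at -1.09 (SE 0.22, adjusted p 0.000622, limma), although with normexp it gave 0.031 and it was well above background on 1 IRI array. Il27ra passed the filter only through Control, and none of the other 4 chains was called. Of 4 Janus kinases tested, Jak2, which docks on gp130, rose by 1.21 (SE 0.12) and Jak1 by 0.44 (SE 0.08), and Tyk2 fell by 1.08 on the log2 scale. The call of Jak1 was lost with normexp (0.34), without normalization (0.56), in the deposited matrix (0.17) and with probes averaged as log2 values (0.14), that of Jak2 in the deposited matrix (0.53) and that of Tyk2 with normexp (-0.45). Jak2 was lower than IRI in both pretreated groups, by -0.55 (SE 0.12) in IPC+IRI and -0.50 (SE 0.12) in IRI+Hemin, but neither was called without normalization between arrays (-0.23 and -0.13). Tyk2 was above IRI in both, by 1.13 (SE 0.20) and 1.22 (SE 0.20). Among the other STATs, Stat4, which passed the filter only through IRI, rose by 1.28 (SE 0.48) in IRI vs Control. The call of Stat4 was lost without Control array 1, 2 or 4 or IRI array 2 or 3 (1.14 to 1.25) and with normexp (0.37). Of 14 other SOCS genes and negative regulators, 4 rose and 4 fell, and among all genes 50.6% were called. Those named were Socs7 (0.95, SE 0.24), Ptpn1 (0.90, SE 0.14) and Ptpn2 (0.78, SE 0.15), of which the last was -1.37 and not called in the deposited log2 matrix, and, on the lower side, Ptpn6 (-0.56, SE 0.13), Pias3 (-0.54, SE 0.15) and Adam17 (-0.51, SE 0.11), the sheddase that releases soluble IL-6 receptor. None of these 3 falls was called with normexp (-0.37, -0.07 and -0.27) or without normalization.

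Neutrophil markers moved with the same groups, whereas those of other leukocytes did not move as 1 set. In whole kidney RNA, more cells of a type and more RNA per cell cannot be told apart. The summed level of 3 neutrophil markers, as signal over the 75th percentile, ran from 0.198 to 0.544 in Control and from 0.396 to 1.52 in Hemin. It ran from 2.42 to 8.01 in IRI, from 2.08 to 9.38 in IRI+Hemin and from 6.27 to 19.1 in IPC+IRI. Of these markers, S100a8 and S100a9 rose in IRI vs Control (2 of 2 tested), by 4.05 (SE 0.66) and 3.68 (SE 0.53), against 17.0% of all genes. S100a8 was well above background on 2 Control arrays and passed the filter only through IRI. Csf3r was not tested there. All 3 rose in IRI+Hemin vs Hemin, against 16.4% of all genes. Csf3r was well above background on no Hemin array and passed only through IRI+Hemin. Ly6g and Cxcr2 had no probe under those names. The summed level of 4 macrophage markers had a median of 1.45 in Control and 2.12 in IRI, with 1 of 3 tested called higher (Cd68, by 2.23). Emr1, another of them, gave -0.86 and did not pass. The sum of 4 T and B cell markers had a median of 0.378 in Control and 0.220 in IRI, with 3 called lower. Ptprc, carried by all leukocytes, was level at -2.87 ± 0.04 and -2.86 ± 0.38 (SD, n = 4). Proximal tubule markers summed to a median of 515 in Control and 448 in IRI, with 2 of 5 called lower, near the 33.7% of all genes. The part of these cells in the rise of Il6, Osmr, Stat3 and Socs3 was not tested.

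The genes whose group pattern was most like that of 3 members were found by the root mean square distance between their 4 differences from Control, over 14526 genes well above background on all 20 arrays. The 4 differences share the Control arrays and slides. Nearest to Socs3 were Cdkn1a, a cell cycle inhibitor (distance 0.305), Sphk1, a sphingosine kinase (0.519), and Ch25h, a cholesterol hydroxylase (0.570). Nearest to Osmr were Adamts1 (0.087), Relb (0.128) and Cd14 (0.158), which encode a metalloprotease, an NF-kappaB subunit and a receptor for endotoxin. Among the nearest to Socs2 were Klrg2 (0.080) and Dsg2 (0.089). The patterns of Osmr and Socs2 are means over probes that differed and follow the brighter probe, so these likenesses depend on it. From Control, Cdkn1a differed by 5.21 (IRI), 4.66 (IRI+Hemin), 4.63 (IPC+IRI) and -0.17 (Hemin), beside 4.93, 4.42, 5.06 and 0.056 for Socs3.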

How the data were processed

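Mouse kidney RNA of 20 samples was hybridized to 1-colour (Cy3) Agilent 4x44K arrays. The authors deposited scanner intensity, background-subtracted within each array by Agilent Feature Extraction 9.5.3.1. A deposited log2 matrix of the same signal, with no normalization between arrays stated, served as an alternative. Of 43379 non-control spots (41174 probes), those with outlier flags were removed (53 to 165 per array). Signals were divided by the 75th percentile of the array, probes of a gene name were averaged, and log2 was taken. Genes with at most 1 missing value and well above background on 3 of 4 arrays of either group were tested with limma 3.58.1 (R 4.3.3) on 5 group means over 20 arrays (15 residual degrees of freedom), with Benjamini-Hochberg adjustment and a threshold of 0.05. With 4 arrays against 4, an exact permutation test of 1 gene cannot go below a p of 0.029. The number of arrays limits the precision, and as the labels do not say how the replicates were taken, p-values measure only the spread between these samples. The tests were checked on simulated data.

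The members and lists were chosen with earlier results of these data known. Beside the members, the text names, for each pathway list, up to 3 called genes with the largest rise and up to 3 with the largest fall in IRI vs Control that were well above background on at least 4 of its 8 arrays, and 3 nearest genes each for Socs3, Osmr and Socs2. Saa3 and Serpina3n were named after their values were seen, and 2 genes that the rule names are not reported here. No array pair held identical values. Replicate numbers did not pair the samples. Alternatives covered background correction, normalization, summary over probes, filters, the SAM and t-test of the methods, the replicate block, and each array or probe left out or used alone. Probe coordinates are mm9 as in the files, promoters GRCm38.p6.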

Additional observations from a re-analysis of the deposited data

Results flagged for a closer look

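A single array stood apart from the other 3 of its group in 14 of the 145 gene and group sets examined, by the gap to its nearest neighbour over the whole range (Dixon's test at its 95% critical value). Chance gives about 1 such set in 20. Among the members these were Il11 in Hemin array 4 (log2 level -2.40), Il6st in IRI+Hemin array 2 (2.17), Osmr in Hemin array 3 (-0.85), Socs2 in IRI array 2 (1.04) and Socs3 in IPC+IRI array 1 (3.62). Among the other pathway genes they were Clcf1 in Control array 3 (-2.90), Osm in Hemin array 2 (-5.41), Ctf1 in Control array 1 (0.048), Il27 in IPC+IRI array 2 (-1.41), Il27ra in IRI array 2 (-5.04) and Stat4 in Control array 3 (-4.26). The others were Socs7 in IPC+IRI array 2 (-2.80), Ptpn2 in Hemin array 4 (0.63) and Saa1 in IPC+IRI array 1 (-2.69).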

How the results depend on the processing

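Of 1579 member differences recomputed under other settings, 1464 stayed on their side of the threshold, 91 lost a call, 21 gained one and 3 changed sign where the value was called under at least one of both settings. The 3 were Il6ra in IPC+IRI vs Control by probe A_51_P415863 (-0.51), Il6ra in IRI+Hemin vs IRI with normexp (-0.15) and Osmr in IRI+Hemin vs IRI by probe A_52_P495729 (-1.70). Among 3022 other pathway differences 5 did so: Osm (0.12) and Il27ra (0.031) in IRI vs Control with normexp, Ptpn2 in IRI vs Control in the deposited matrix (-1.37), and Ptpn6 in Hemin vs Control without normalization (0.23) and in the deposited matrix (0.24). The cause was not tested. Another 163 of all these values, not called under either setting, also changed sign.

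The number of members called in IPC+IRI vs IRI was 2, and 1 without normalization between arrays, in the deposited matrix, without the filter on dim genes, with only the arrays compared or by the methods' t-test (Benjamini-Hochberg), and 0 by SAM (1 at an unadjusted p below 0.05 by the t-test). In IRI+Hemin vs IRI it was 5, and 3 with normexp or without normalization, 2 with only the arrays compared, 1 by the t-test and 0 by SAM (2 at an unadjusted p below 0.05 by the t-test). In Hemin vs Control it was 1 (Il11), and without normalization 2 others (Il6st and Stat3), with Il11 lost. In IRI+Hemin vs Hemin it was 7, and 4 without normalization, in the deposited matrix or by SAM. In IPC+IRI vs Hemin it was 6, and 3 in the deposited matrix. In IPC+IRI vs Control it was 6, and 3 by SAM. Pathway genes called were 33 in IRI vs Control (20 with normexp, 16 by SAM), 38 in IPC+IRI vs Control (14 by SAM), 24 in IPC+IRI vs IRI (2 by SAM, 15 by the t-test), 21 in IRI+Hemin vs IRI (2 by SAM), 28 in Hemin vs Control (17 in the deposited matrix, 2 by SAM), 37 in IRI+Hemin vs Hemin (18 by SAM) and 27 in IPC+IRI vs Hemin (15 by SAM).

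With each array dropped in turn, 1 to 2 members were called in IPC+IRI vs IRI, 2 to 5 in IRI+Hemin vs IRI and 1 to 2 in Hemin vs Control. With the replicate number as a block, 1 member was called in IPC+IRI vs IRI, Il11, as Il6 and in IPC+IRI vs Hemin Socs2 lost their calls. Samples with the same number did not deviate together (correlations of -0.31 to 0.19 over 40 pairs, 6 of them over 0.1), so they shared only a number.

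Other scalings or background correction (normexp) moved the share of higher among all called genes, which was 33.5% in IRI vs Control (19.6% to 56.5%), 41.5% in IPC+IRI vs Control (33.3% to 75.2%), 59.5% in IPC+IRI vs IRI (49.0% to 90.9%), 59.2% in IRI+Hemin vs IRI (44.9% to 91.5%), 51.2% in Hemin vs Control (35.0% to 94.8%), 37.1% in IRI+Hemin vs Hemin (27.2% to 47.2%), 36.6% in IPC+IRI vs Hemin (23.8% to 49.4%) and 75% in the interaction (63.4% to 89.2%). The median of all genes in Hemin vs Control was 0.057 and reached 0.62 without normalization. Signal near background limits Il6 in uninjured kidneys.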
